A study of Mus musculus with 6 samples.

Results

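Transcripts for fatty acid uptake and beta-oxidation were followed in left ventricles of mice that lack the histone demethylase gene Kdm3a (Kdm3a-KO, here KO) or are wild type (WT), after transverse aortic constriction (TAC), a banding of the aorta that overloads the left ventricle with pressure, or after Sham surgery. The gene set holds 38 named genes chosen by their role in fatty acid handling. A probe was annotated to 36 of them, and 33 of the 9625 genes tested belonged to the set. Acsl1 and Ucp2 had no probe in the annotation used and were not analysed here. Fabp4 (1 probe), Slc27a4 (1 probe) and Cpt1a (2 probes) did not pass the background filter.

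The 6 samples, 1 Illumina bead array each, were 2 KO TAC, 1 KO Sham, 2 WT TAC and 1 WT Sham ventricles. All came from male mice labelled c57/BL6 that were 6 to 8 weeks old at surgery, and the labels place the harvest 3 weeks later. The study describes the knockout as global, not limited to heart muscle cells, and on a mixed FVB/C57/Bl6J background with littermate controls, and its text gives a later harvest, so strain and time cannot be settled from the sources. The labels do not say that arrays of a group came from separate animals, so p-values measure the spread between these arrays only. The Kdm3a probe with the largest genotype difference (ILMN_3118169) read 137 and 143 in KO TAC and 129 in KO Sham, against 296 and 264 in WT TAC and 292 in WT Sham, which fits the genotype labels. The 2 other kept Kdm3a probes stayed above background in KO: ILMN_2707895 read 394 and 361 in KO TAC and 390 in KO Sham, against 466 and 486 in WT TAC and 502 in WT Sham, and ILMN_3043245 read 231 and 222 in KO TAC and 196 in KO Sham, against 299 and 313 in WT TAC and 336 in WT Sham. Background, the level that 99% of receptor probes silent in heart stayed under, was 149 to 155.1 on the deposited linear intensity scale, and 33% to 35.4% of probes exceeded it. The 4 arrays other than WT TAC correlated with each other at 0.984 or higher over the log2 values of all genes tested, and WT TAC arrays with those 4 at 0.9169 to 0.931. All 6 measured cardiomyocyte markers were above background. None of 6 probes for the adipocyte markers Adipoq, Plin1, Cidec, Lep and Retn exceeded background on any array.

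The adult heart burns fatty acids for most of its energy. Fatty acids enter through membrane carriers, are bound by small cytosolic proteins, are tied to coenzyme A by acyl-CoA synthetases and cross into mitochondria as carnitine esters. Inside, a repeating cycle of dehydrogenation, hydration, a second dehydrogenation and thiolysis shortens the chain, and the electrons pass through electron transfer flavoprotein to the respiratory chain. Peroxisomes shorten very long and branched chains, and malonyl-CoA, made by acetyl-CoA carboxylase and removed by malonyl-CoA decarboxylase, restrains entry at carnitine palmitoyltransferase 1. The overloaded, hypertrophied heart is known for a shift away from fatty acids toward glucose.

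Most fatty acid transcripts were higher in KO TAC than in WT TAC ventricles. All measured genes of the mitochondrial cycle, the auxiliary enzymes, electron transfer and malonyl-CoA control were called higher. Of 3 acyl-CoA synthetase genes 0 were, and of 3 peroxisomal genes 1 was. Of 33 members measured, 25 were higher by limma at an adjusted p under 0.05, against 21.6% of all genes tested, and 1 was lower, Acsl5, against 19.6% (26 in either direction, against 41.2%). The largest differences were in Acaa2, the last enzyme of the mitochondrial cycle (log2 difference 2.50 ± 0.17, SE), and in Eci1, an isomerase for unsaturated chains (1.66 ± 0.19). The median difference over the members was 0.93 on the log2 scale, beside 0.04 over all genes tested. Both KO TAC arrays lay above both WT TAC arrays for 28 members, as they did for 39.3% of all genes, and below them for Acsl4 and Acsl5, as for 34.2% of all genes. Fabp5, Hadha and Ehhadh passed the filter only through other groups and were at background on both WT TAC arrays. Ehhadh was above background on KO arrays alone, so its call, counted among the 25, says little. Among the 30 members above background on all 6 arrays, refitted alone with genes that met that limit, 23 were called higher and 1 lower. In that refit 1889 of 8043 genes were called higher and 1494 lower. Of these 30, 12 (40%) were more than 2-fold higher in KO TAC, beside 5.9% of all genes above background on every array. Each of the 16 members with more than 1 kept probe had the same sign on all of them.

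In the plot of all members by array, the WT TAC pair stood apart. WT TAC replicate 2 was the lowest of the 6 arrays for 25 members and WT TAC replicate 1 for 6 more. The same count over all genes was not made. The deposited intensity summed over the members was 274457 and 269863 in KO TAC and 264612 in KO Sham, against 170475 and 159086 in WT TAC and 267407 in WT Sham. Without WT TAC replicate 2, the median log2 difference between KO TAC and WT TAC was 0.76 over the members, beside 0.04 over all genes. Fewer calls were then made, among the members and over all genes alike.

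**Figure D1:**
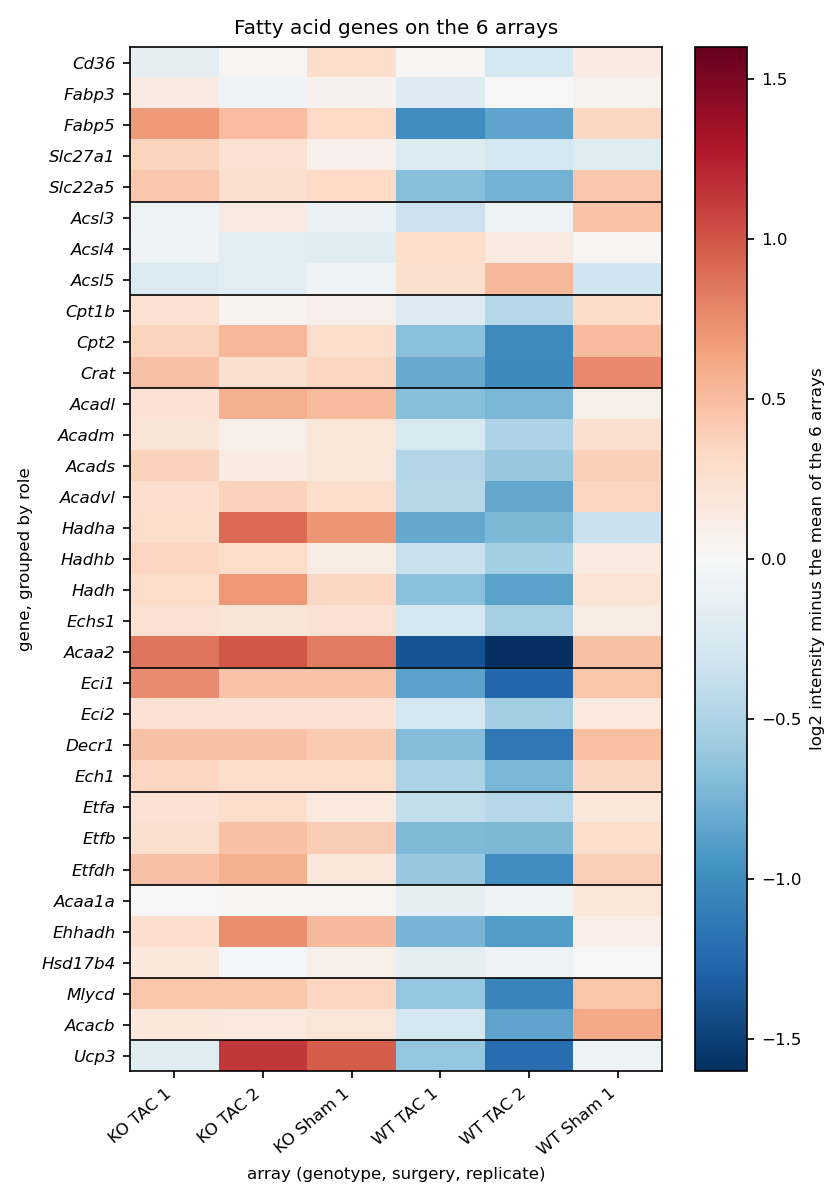
Colour gives the normalized log2 intensity of each of the 33 measured members minus its own mean over the 6 arrays; columns are arrays, rows are genes, and black lines part the roles from uptake (top) to uncoupling (bottom). Both WT TAC columns are blue for most genes, and for 25 members WT TAC replicate 2 is the lowest of all.

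Markers of other cell types also differed in the same comparison, not all of a type alike. Summed intensities of 10 fibroblast markers were 21825 to 23507 in KO TAC and 22906 in KO Sham, against 34403 to 35458 in WT TAC and 20442 in WT Sham, and KO TAC was lower than WT TAC for 7 of the 10. For 10 macrophage markers the sums were 6016 to 7457 in KO TAC and 7026 in KO Sham. They were 10016 to 10614 in WT TAC and 5099 in WT Sham (3 lower, 1 higher in KO TAC). The log2 differences of the 10 between the TAC groups ran from -4.37 for Cd14 to 1.14 for Cx3cr1, with a median of -0.19. The 4 neutrophil markers summed to 642 to 918 in KO TAC and 954 in KO Sham. Their sums were 7055 to 11747 in WT TAC and 775 in WT Sham, and all 4 were lower in KO TAC. The neutrophil markers Retnlg and Ngp and the fibroblast marker Postn were above background on the WT TAC arrays alone. They passed the filter only through the group where they were high, so their lower calls say little. The 6 cardiomyocyte markers summed to 122948 to 123215 in KO TAC and 125397 in KO Sham, against 100985 to 101846 in WT TAC and 119713 in WT Sham. Of these 6, 3 were called higher in KO TAC, Myh6 (0.77), Tnni3 (0.70) and Pln (0.51) on the log2 scale, and 0 lower. The log2 differences of the 6 ran from 0.002 to 0.77. Of 11 endothelial markers 4 were higher and 3 lower. The part of this shift in the fatty acid values was not tested, and in whole ventricle fewer cells of a type and less RNA per cell cannot be told apart.

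Among uptake and binding genes, 3 of 5 measured were higher in KO TAC than in WT TAC. Slc22a5 encodes OCTN2, the sodium-dependent carnitine carrier. It read 843 and 760 in KO TAC and 787 in KO Sham, against 448 and 430 in WT TAC and 848 in WT Sham. The WT TAC pair was the only low one, the log2 difference between the TAC groups was 1.06 ± 0.14 (limma, adjusted p = 0.00187), and the 2 other kept probes gave 1.53 and 0.74. Slc27a1 (FATP1), a fatty acid transporter with acyl-CoA synthetase activity, read 756 and 704 in KO TAC and 642 in KO Sham, against 542 and 523 in WT TAC and 548 in WT Sham (0.54 ± 0.14, adjusted p = 0.0197), so that here WT Sham lay with WT TAC. Fabp5, an epidermal-type fatty acid binding protein, read 207 and 194 in KO TAC and 184 in KO Sham, against 136 and 139 in WT TAC and 184 in WT Sham, with both WT TAC readings at background (adjusted p = 0.000607). Set against the lowest reading that counts as above background, KO TAC was at least 1.34-fold higher on the deposited scale, which still contains background, and at least 2.09-fold after background subtraction.

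Fabp3, the heart-type binding protein, did not pass the test. Its intensities were 40864 and 35831 in KO TAC and 39247 in KO Sham, against 32398 and 37191 in WT TAC and 38676 in WT Sham, with overlapping groups. The brightest probe of any array read 43297.3, so the Fabp3 probe sat near the top of the scale. Cd36, the main fatty acid translocase, read only 168 and 176 in KO TAC and 191 in KO Sham, against 176 and 162 in WT TAC and 182 in WT Sham, close to background, and its log2 difference was 0.07 ± 0.16. Fabp4, the adipocyte and endothelial binding protein, stayed between 113 and 126 on the 6 arrays. Slc27a4 (FATP4) read 147 and 154 in KO TAC and 144 in KO Sham, against 136 and 139 in WT TAC and 147 in WT Sham, above background on 1 array.

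Of the 3 long-chain acyl-CoA synthetase genes of the set that were measured, none was called higher in KO TAC. Acsl5 ran against the pathway. It read 972 and 993 in KO TAC and 1071 in KO Sham, against 1305 and 1557 in WT TAC and 913 in WT Sham (-0.59 ± 0.15, adjusted p = 0.0218), and its other kept probe, at -0.34, did not pass the test across probes. Acsl4, a synthetase that prefers arachidonic acid, read 170 and 164 in KO TAC and 163 in KO Sham, against 187 and 179 in WT TAC and 173 in WT Sham (-0.33 ± 0.14, adjusted p = 0.106). A second kept Acsl4 probe read 150 and 132 in KO TAC and 143 in KO Sham, against 191 and 184 in WT TAC and 143 in WT Sham (-1.19), and was above background on the WT TAC arrays alone. Averaging both probes made Acsl4 a lower call (-0.76, adjusted p = 0.0133), but that probe had passed the filter only through the group where it was high. Acsl3, known from lipid droplets, read 214 and 232 in KO TAC and 212 in KO Sham, against 196 and 214 in WT TAC and 263 in WT Sham (0.24 ± 0.16, adjusted p = 0.272). The probes of Acsl3 and Acsl4 were dim.

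At the carnitine shuttle, 2 of 3 measured genes were higher in KO TAC. Cpt2 encodes the inner-membrane carnitine palmitoyltransferase, which returns the acyl group to coenzyme A. It read 8762 and 9873 in KO TAC and 8333 in KO Sham, against 4362 and 3459 in WT TAC and 9717 in WT Sham (1.28 ± 0.17, adjusted p = 0.00178), and its 2 other probes gave 1.38 and 1.59. Crat, the carnitine acetyltransferase that buffers acetyl-CoA, read 2871 and 2495 in KO TAC and 2642 in KO Sham, against 1249 and 1096 in WT TAC and 3514 in WT Sham (1.27 ± 0.15, adjusted p = 0.00131), and its 2 other probes gave 1.56 and 1.04. In both genes the WT TAC pair was the lowest. Cpt1b, the muscle form of the outer-membrane transferase and the gated entry step, was less separated. It read 8952 and 7799 in KO TAC and 8006 in KO Sham, against 6583 and 5559 in WT TAC and 9367 in WT Sham (0.47 ± 0.16, adjusted p = 0.0511). The groups did not overlap, the second probe gave 0.50, and alternatives such as no background correction made the call (adjusted p = 0.0211). Both probes of Cpt1a, the liver form, read 113 to 132 on all arrays, below background.

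**Figure D2:**
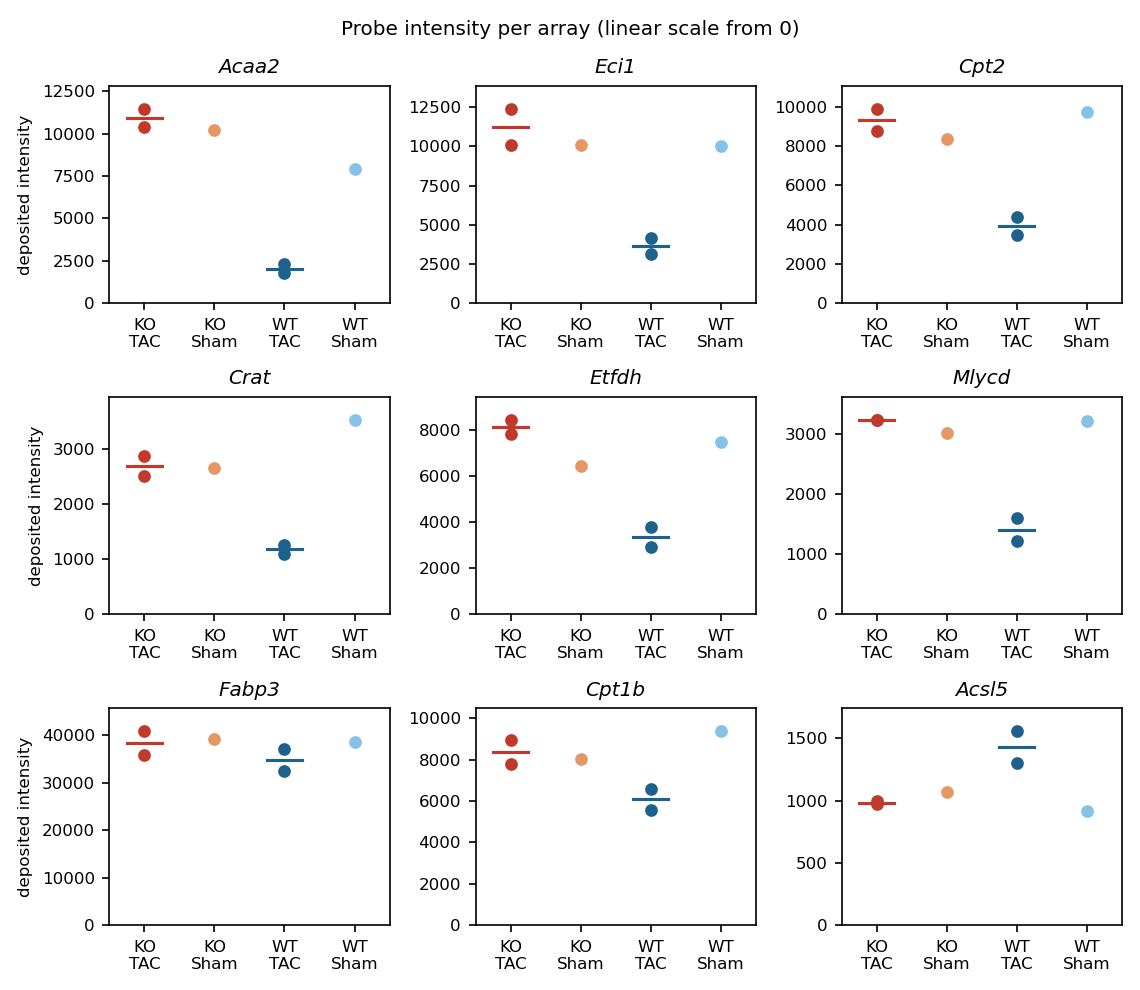
Deposited probe intensity (linear axis from 0) per array for 9 members, with groups KO TAC, KO Sham, WT TAC and WT Sham from left to right and a bar at the mean of each pair. Acaa2, Eci1, Cpt2, Crat, Etfdh and Mlycd are low in WT TAC only, Fabp3 and Cpt1b are closer between groups, and Acsl5 is high in WT TAC.

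All 9 mitochondrial beta-oxidation genes were higher in KO TAC than in WT TAC. Acaa2, the mitochondrial 3-ketoacyl-CoA thiolase, read 10360 and 11433 in KO TAC and 10234 in KO Sham, against 2276 and 1765 in WT TAC and 7935 in WT Sham. This was a log2 difference of 2.50 ± 0.17 (adjusted p = 0.000179), and 3 further probes gave 2.60, 2.43 and 1.43. The acyl-CoA dehydrogenases, which open the cycle on chains of different length, were all higher in KO TAC, and probes of 1 gene differed in size as much as the genes did. Acadl (long chain) read 3191 and 4039 in KO TAC and 3840 in KO Sham, against 1743 and 1691 in WT TAC and 2903 in WT Sham (1.11 ± 0.16, adjusted p = 0.00269), while its 2 other kept probes gave 0.62 and 0.54. Acadvl (very long chain) read 11666 and 12428 in KO TAC and 11755 in KO Sham, against 7135 and 5553 in WT TAC and 12216 in WT Sham (0.95 ± 0.17, adjusted p = 0.0054), and its other probe gave 0.67. Acads acts on short chains and Acadm on medium chains. Acads read 2879 and 2455 in KO TAC and 2577 in KO Sham, against 1663 and 1522 in WT TAC and 2917 in WT Sham (0.78 ± 0.15), with 1.03 on its other probe. Acadm read 31236 and 28944 in KO TAC and 30858 in KO Sham, against 22678 and 19264 in WT TAC and 32227 in WT Sham (0.53 ± 0.15, adjusted p = 0.0301).

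Hadha and Hadhb encode the subunits of the mitochondrial trifunctional protein, which carries out the last 3 steps of the cycle on long chains. Hadhb was bright and read 18677 and 18055 in KO TAC and 16074 in KO Sham, against 11590 and 10175 in WT TAC and 16302 in WT Sham (0.76 ± 0.14, adjusted p = 0.00645). The single Hadha probe was dim and read 187 and 232 in KO TAC and 216 in KO Sham, against 143 and 145 in WT TAC and 157 in WT Sham (adjusted p = 0.00372). WT TAC was at background, and KO TAC was at least 1.39-fold higher on the deposited scale and at least 2.25-fold after background subtraction. Unlike the Hadhb probe, it placed WT Sham near WT TAC. Hadh, the short-chain hydroxyacyl-CoA dehydrogenase, read 332 and 405 in KO TAC and 338 in KO Sham, against 221 and 206 in WT TAC and 320 in WT Sham (1.25 ± 0.18). Echs1, the short-chain enoyl-CoA hydratase, read 7437 and 7255 in KO TAC and 7429 in KO Sham, against 5212 and 4411 in WT TAC and 6837 in WT Sham (0.63 ± 0.15, limma adjusted p = 0.0159). Hadh and Echs1 each had a second, dim kept probe, above background on 2 arrays, which gave 0.58 and 0.38.

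The 4 auxiliary enzymes, which rearrange double bonds so that unsaturated chains can enter the cycle, were all higher in KO TAC. Eci1, the enoyl-CoA isomerase of mitochondria, read 12372 and 10104 in KO TAC and 10082 in KO Sham, against 4122 and 3151 in WT TAC and 10047 in WT Sham (adjusted p = 0.00105). Decr1, the 2,4-dienoyl-CoA reductase, read 2570 and 2583 in KO TAC and 2498 in KO Sham, against 1206 and 913 in WT TAC and 2605 in WT Sham (1.39 ± 0.18, adjusted p = 0.00167). For both, KO TAC, KO Sham and WT Sham lay close together and both WT TAC arrays well below them. Ech1, a dienoyl-CoA isomerase, read 33003 and 31711 in KO TAC and 31794 in KO Sham, against 18422 and 15792 in WT TAC and 32786 in WT Sham (0.93 ± 0.15). Eci2, the second isomerase, read 1859 in each KO TAC array and 1856 in KO Sham, against 1342 and 1123 in WT TAC and 1770 in WT Sham (0.64 ± 0.15, adjusted p = 0.016).

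All 3 electron transfer genes were higher in KO TAC. Etfdh encodes the ubiquinone oxidoreductase that hands the electrons of the acyl-CoA dehydrogenases to the respiratory chain. It read 7835 and 8424 in KO TAC and 6442 in KO Sham, against 3784 and 2917 in WT TAC and 7497 in WT Sham (1.32 ± 0.17, adjusted p = 0.0017). The flavoprotein subunit Etfb read 23018 and 26702 in KO TAC and 25550 in KO Sham, against 11912 and 11782 in WT TAC and 23419 in WT Sham (1.07 ± 0.14). Its partner Etfa read 29495 and 30599 in KO TAC and 28129 in KO Sham, against 19264 and 18506 in WT TAC and 28647 in WT Sham (0.67 ± 0.13, adjusted p = 0.00815). The subunits therefore both separated without overlap.

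The peroxisomal branch showed 1 of 3 genes higher in KO TAC. Ehhadh, the bifunctional enzyme, read 159 and 181 in KO TAC and 170 in KO Sham, against 130 and 126 in WT TAC and 153 in WT Sham. Ehhadh was above background on the KO arrays alone and in neither WT group. It passed the filter only through the genotype where it was high, so its higher call says little. KO TAC was at least 1.13-fold higher than WT TAC on the deposited scale and at least 1.42-fold after background subtraction (limma, adjusted p = 0.00245). Acaa1a, the peroxisomal thiolase, read 4056 and 4145 in KO TAC and 4139 in KO Sham, against 3661 and 3910 in WT TAC and 4665 in WT Sham. Hsd17b4, the multifunctional enzyme for branched chains, read 3738 and 3298 in KO TAC and 3538 in KO Sham, against 3008 and 3133 in WT TAC and 3317 in WT Sham. Neither passed the test, with log2 differences of 0.12 (95% interval -0.20 to 0.44) for Acaa1a and 0.20 (-0.14 to 0.54) for Hsd17b4. Acaa1a is close in sequence to Acaa1b, so its probe may not part them.

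Both genes of malonyl-CoA control were higher in KO TAC, although their enzymes act against each other. Mlycd, the decarboxylase that removes malonyl-CoA, read 3235 and 3233 in KO TAC and 3029 in KO Sham, against 1599 and 1211 in WT TAC and 3219 in WT Sham (1.28 ± 0.18, adjusted p = 0.00214). Acacb, the mitochondrial acetyl-CoA carboxylase that makes it, read 2126 and 2093 in KO TAC and 2160 in KO Sham, against 1572 and 1104 in WT TAC and 2821 in WT Sham (0.73 ± 0.20, adjusted p = 0.0277, and 0.0681 with no filter on dim probes). Ucp3, a mitochondrial carrier of muscle that follows fatty acid supply, was the most scattered member. It read 247 and 464 in KO TAC and 425 in KO Sham, against 211 and 174 in WT TAC and 259 in WT Sham (1.39 ± 0.42, adjusted p = 0.0382, and 0.115 with no filter on dim probes).

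**Figure D3:**
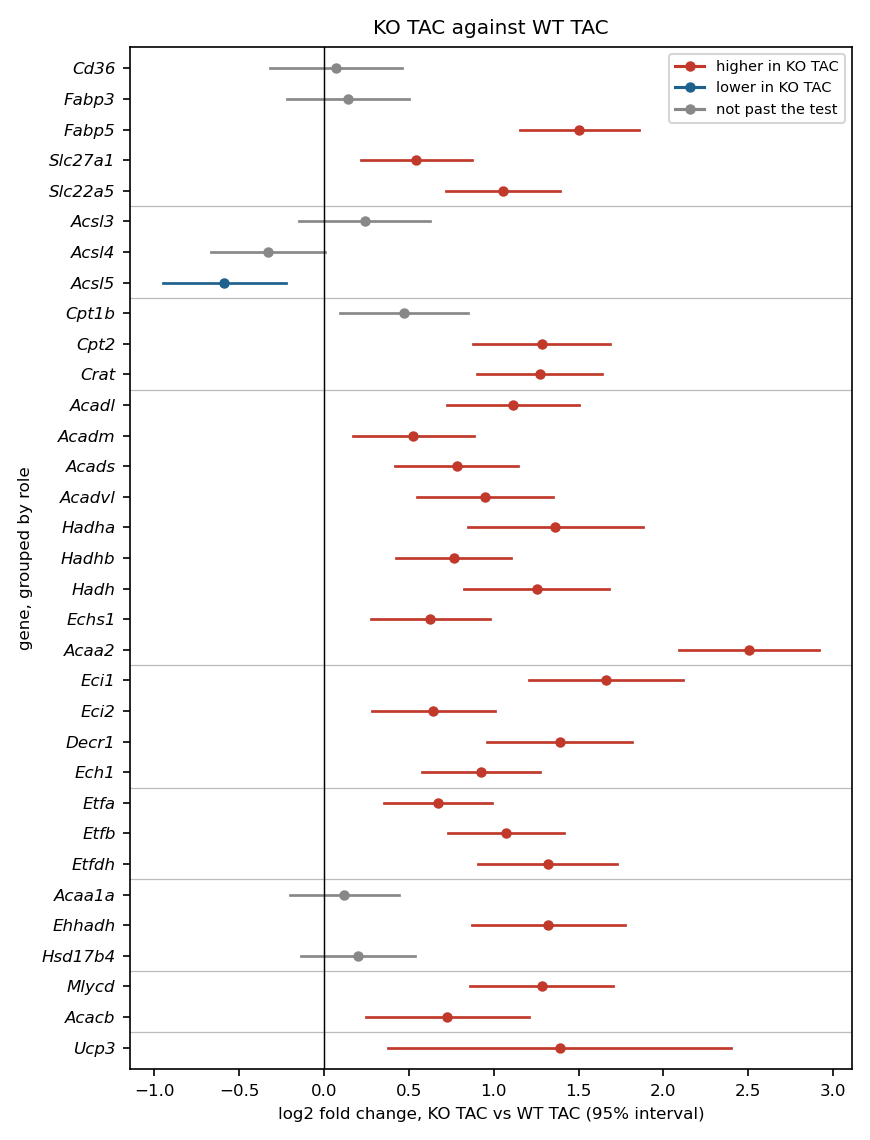
Log2 difference between KO TAC and WT TAC (points) with its 95% interval from limma (lines) for the 33 members, ordered by role from uptake (top) to uncoupling (bottom). Red marks the 25 genes called higher, blue the 1 called lower (Acsl5), grey the rest; Acaa2 lies farthest right at 2.50 Ucp3 has the widest interval, and the fitted values of Fabp5, Hadha and Ehhadh rest on WT TAC readings at background.

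Promoter sequence was read from RefSeq on GRCm38.p6 over the 250 bases before each annotated start of the 38 genes, whether or not they were measured or called. A window was found for 31 of the 38 members (34 windows, since some genes have more than 1 start), and those without one included Acaa2, Crat and Cpt1b. The letters GGGCGG, the GC box of housekeeping promoters, stood on either strand in 22 of 34 windows (64.7%), beside 32.7% of the 32851 windows of all genes. AGGTCA, the half-site read by nuclear receptors such as the PPAR and ERR families that are known for control of these genes, stood in 6 windows (17.6%, beside 14%), those of Acadm, Acadvl, Cd36, Cpt1a, Echs1 and Ucp3. The direct repeat of AGGTCA with any 1 base between the copies (0.0335% of all windows) and TNAAGGTCA (1.14%), which both contain AGGTCA, were in none of the 34. GCGCA and GCGC with any 1 base between them is the site pattern of nuclear respiratory factor NRF1. It stood in 3 windows (8.82%, beside 3.74%), those of Etfb, Etfdh and Slc22a5. TATAAA stood in 1, that of Acacb (2.94%, beside 12.4%). These are matches of letters in short windows and say nothing of binding.

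The windows below show these layouts for 5 genes called higher in KO TAC and for Acsl5, the one called lower. Capitals mark GGGCGG or its reverse complement in Cpt2, Hadha and Acsl5, the NRF1 pattern in Slc22a5 and Etfdh, and AGGTCA in Acadvl. Each is printed from the far end to the last base before the start.
Cpt2 (chr4:107923590-107923839, minus strand): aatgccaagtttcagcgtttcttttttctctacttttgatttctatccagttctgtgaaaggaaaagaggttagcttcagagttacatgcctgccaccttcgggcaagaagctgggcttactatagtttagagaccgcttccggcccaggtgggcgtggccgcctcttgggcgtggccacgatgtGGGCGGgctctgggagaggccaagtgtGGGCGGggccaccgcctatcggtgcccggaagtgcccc
Slc22a5 (chr11:53891704-53891953, minus strand): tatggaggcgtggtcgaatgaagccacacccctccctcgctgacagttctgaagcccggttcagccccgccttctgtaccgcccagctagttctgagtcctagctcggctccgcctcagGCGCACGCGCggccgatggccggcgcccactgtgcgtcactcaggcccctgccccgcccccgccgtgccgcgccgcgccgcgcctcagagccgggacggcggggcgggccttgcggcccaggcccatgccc
Etfdh (chr3:79628768-79629017, minus strand): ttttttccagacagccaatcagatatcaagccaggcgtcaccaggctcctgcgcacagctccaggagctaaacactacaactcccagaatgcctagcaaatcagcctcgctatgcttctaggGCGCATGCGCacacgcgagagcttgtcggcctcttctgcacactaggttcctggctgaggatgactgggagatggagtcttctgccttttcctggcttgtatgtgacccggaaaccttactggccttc
Acadvl (chr11:70015429-70015678, minus strand): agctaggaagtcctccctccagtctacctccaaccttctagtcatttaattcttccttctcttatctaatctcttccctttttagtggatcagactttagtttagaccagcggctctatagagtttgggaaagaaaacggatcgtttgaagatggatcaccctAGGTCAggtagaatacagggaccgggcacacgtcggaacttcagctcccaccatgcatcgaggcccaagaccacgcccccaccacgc
Hadha (chr5:30154981-30155230, minus strand): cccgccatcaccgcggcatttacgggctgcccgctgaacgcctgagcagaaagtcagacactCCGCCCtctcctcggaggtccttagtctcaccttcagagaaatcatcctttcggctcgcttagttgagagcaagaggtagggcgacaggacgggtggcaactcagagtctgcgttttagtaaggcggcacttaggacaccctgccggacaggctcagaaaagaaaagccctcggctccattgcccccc
Acsl5 (chr19:55253119-55253368, plus strand): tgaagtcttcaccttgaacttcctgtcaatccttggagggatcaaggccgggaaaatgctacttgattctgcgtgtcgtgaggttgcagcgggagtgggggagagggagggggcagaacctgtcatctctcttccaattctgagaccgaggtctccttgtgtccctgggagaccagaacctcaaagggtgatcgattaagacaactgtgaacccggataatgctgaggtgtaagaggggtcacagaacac
Cpt2 held 2 GC boxes, the nearer ending 33 bases before the start. Acsl5 had no GC box in this window, and neither had Etfdh or Acadvl, both called higher, while Slc22a5 held 3. The Hadha window is shared: Hadha and Hadhb lie head to head with 272 bases between their starts, so that the letters printed for Hadha are, read on the other strand, also the promoter of Hadhb. These 2 genes, whose probes differed so much in brightness, were both higher in KO TAC.

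The response of WT hearts to overload was asked next. In WT TAC, 22 of 33 members were lower than in WT Sham by limma at an adjusted p under 0.05, against 15.8% of all genes, and 1 was higher, Acsl5, against 15.4% (23 in either direction, against 31.2%). The median over the members was -0.84 on the log2 scale, beside -0.07 over all genes. Acaa2 fell most (-2.04 ± 0.21, adjusted p = 0.00126), followed by Crat (-1.68 ± 0.19, adjusted p = 0.00168), Eci1 (-1.51 ± 0.23), Decr1 (-1.41 ± 0.22) and Cpt2 (-1.35 ± 0.21). By role, the carnitine shuttle fell in 3 of 3 genes, the mitochondrial cycle in 7 of 9, the auxiliary enzymes in 3 of 4, electron transfer in 3 of 3 and malonyl-CoA control in 2 of 2. Cpt1b fell here (-0.64 ± 0.19, adjusted p = 0.0461). With no filter on dim probes, which raises the number of genes tested, the calls of Cpt1b (adjusted p = 0.0775), Acadl, Acadm, Hadhb, Acsl3, Acsl5 and Ehhadh were not made. Hadha (-0.42 ± 0.27) and Echs1 (-0.52 ± 0.18, limma adjusted p = 0.0686) of the mitochondrial cycle did not pass the test. The second, dim Echs1 probe gave 0.12. Slc27a1, higher in KO TAC than in WT TAC, showed -0.05 ± 0.17 here. Fabp5 was lower in WT TAC, by at least 1.23-fold on the deposited scale and at least 1.74-fold after background subtraction (adjusted p = 0.00404), and Ehhadh, counted among the 22, was not above background in either WT group. Acsl5 was higher in WT TAC by 0.71 ± 0.19 (adjusted p = 0.0296), a call not made when its kept probes were averaged. WT TAC was 2 arrays and WT Sham 1, so that the WT Sham spread was not measured. Without WT TAC replicate 2, the median over the members was -0.78, beside -0.07 over all genes, and fewer calls were made in both.

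Both WT TAC arrays lay below all 4 other arrays for 28 of 33 members, as they did for 33.9% of all genes, and above them for 2, as for 28.4%. This comparison and that of KO TAC with WT TAC rest on the same 2 WT TAC arrays and are not independent. Lower in WT TAC than in WT Sham and higher in KO TAC than in WT TAC were 20 members. The share of all genes called in both was not counted, so this count has no measure beside it.

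In KO hearts, no member passed the test between TAC and Sham. Of 33, 0 were called by limma, 0 had an unadjusted p under 0.05 (the smallest was 0.13), and 0% of all genes tested were called, with 252 of 9625 at an unadjusted p under 0.05. The median over the members was 0.03, beside -0.01 over all genes. Values ran from -0.50 ± 0.52 for Ucp3 to 0.34 ± 0.21 for Etfdh. For 32 of the 33 members the 95% interval lay within a 2-fold change either way, Ucp3 being the exception. Acaa2 differed by 0.09 between KO TAC and KO Sham (95% interval -0.42 to 0.60), Crat by 0.02 (-0.43 to 0.47) and Cpt2 by 0.16 (-0.33 to 0.65). The test does not show that nothing changed, as KO Sham was a single array.

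Without overload, KO Sham was set against WT Sham, 1 array each, with the spread taken from the TAC pairs. No member was called, and 0.0416% of all genes were called higher and 0.0208% lower (0.0623% in either direction). At an unadjusted p under 0.05 stood 2 members, Hadha at 1.06 ± 0.31 (adjusted p = 0.492) and Acsl3 at -0.56 ± 0.23 (adjusted p = 0.62). The median over the members was -0.02, beside -0.01 over all genes. Crat, at -0.43 (95% interval -0.95 to 0.09), and Acaa2, at 0.37 (-0.21 to 0.96), show how wide these intervals were.

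Whether TAC acted differently in KO and WT hearts was tested directly, as the TAC effect in KO minus that in WT. It was above 0 for 10 members by limma at an adjusted p under 0.05, against 5.63% of all genes, and below 0 for none, against 8.42% (14% in either direction). They were Acaa2 (2.13 ± 0.30, adjusted p = 0.00834), Crat (1.70 ± 0.27, adjusted p = 0.0114), Eci1, Etfdh, Fabp5, Cpt2, Decr1, Mlycd, Slc22a5 and Ech1 (0.97 ± 0.25, adjusted p = 0.0493). In KO hearts the TAC effect of these 10 lay between 0.02 and 0.34, and in WT hearts between -2.04 and -0.95, on the log2 scale. At an unadjusted p under 0.05 were 22 members, and the share of all genes at that limit was not counted. Acsl5 ran the other way at -0.84 ± 0.26 (adjusted p = 0.0793). The medians were 0.80 over the members and 0.06 over all genes. The count depended on 1 array: without WT TAC replicate 2, fewer members were called, and fewer of all genes. The medians were then 0.82 over the members and 0.06 over all genes. Acaa2 and Crat were called under every processing alternative and without each TAC array in turn.

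**Figure D4:**
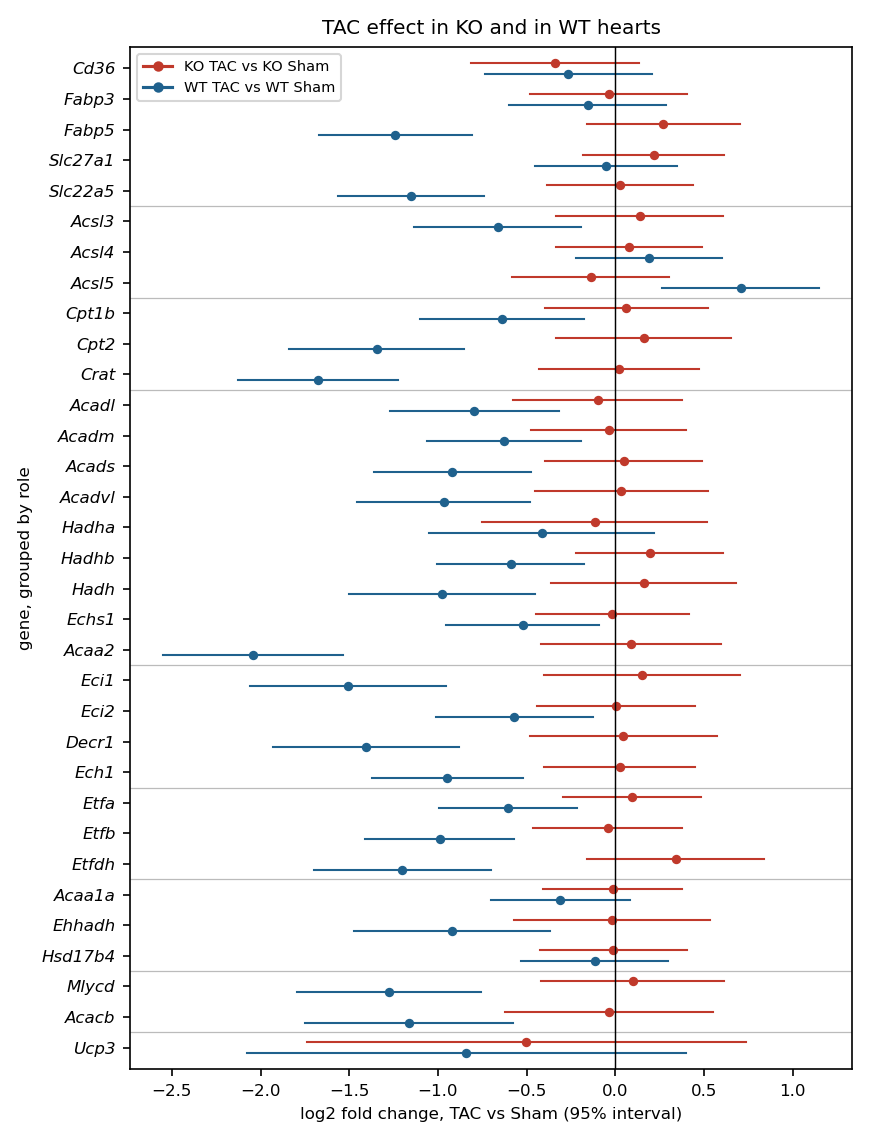
Log2 difference between TAC and Sham with 95% intervals from limma for each member, in KO hearts (red, upper of each pair) and in WT hearts (blue, lower), ordered by role. The red points lie between -0.50 and 0.34, and the blue points reach -2.04 at Acaa2, with Acsl5 to the right at 0.71.

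The members were set beside a list of oxidative phosphorylation subunits, the mitochondrial genes downstream of the cycle. Of 62 subunits measured, 31 were higher in KO TAC than in WT TAC and 0 lower, against 21.6% and 19.6% of all genes. Their median log2 difference was 0.43, beside 0.93 for the members. More than 2-fold higher was 1 of the 62 subunits, all of them above background on every array, beside 12 of the 30 members that were. Bright probes were more common among the subunits: 21 of 62 had a mean intensity over 50% of the brightest probe, beside 4 of 33 members, and what this does to the medians was not tested. In WT TAC 15 of the 62 were lower than in WT Sham, against 15.8% of all genes. The median was -0.37, beside -0.84 for the members. The lists were described by counts and medians only, with no test between them.

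**Figure D5:**
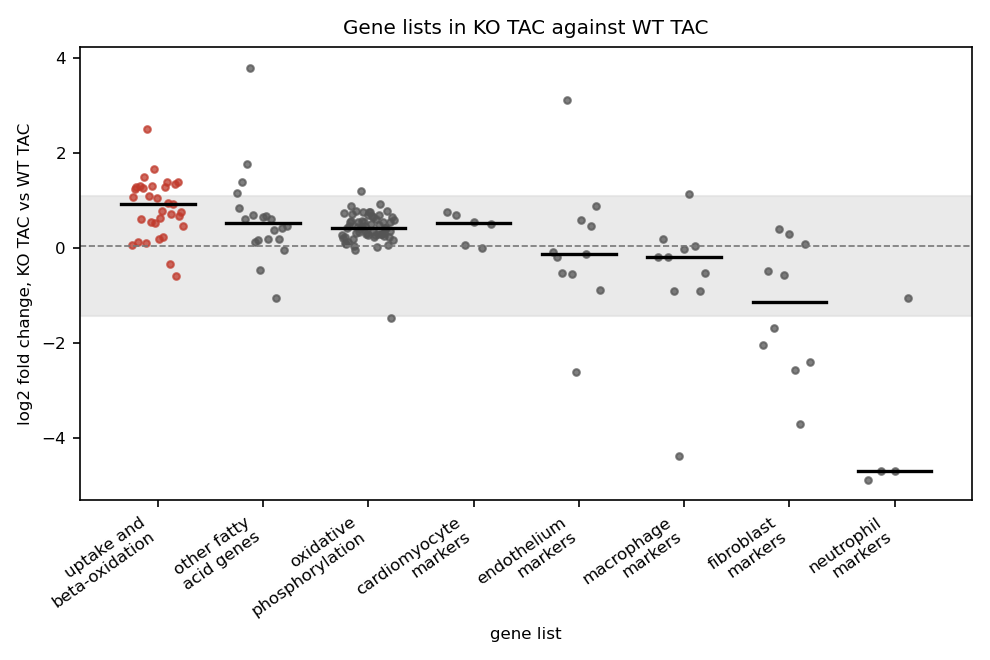
Each point is the log2 difference of 1 gene between KO TAC and WT TAC, by list, with a black bar at the list's median; the grey band spans the middle 90% of all genes tested (-1.43 to 1.10) and the dashed line their median. The fatty acid members (red) have a median of 0.93, other fatty acid genes 0.54 and oxidative phosphorylation 0.43, and fibroblast and neutrophil markers lie lower.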

How the data were processed

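Left ventricular RNA of 6 samples was hybridised to 1-colour Illumina bead arrays. The deposited table holds linear intensity values of 45281 probes that the authors processed with GenomeStudio 2011.1; ranked values matched across the arrays to within 0.838%, as quantile normalization leaves them. Read depth has no counterpart on arrays; the small number of arrays limits precision. The non-normalized table's 6 signal columns could not be tied to samples and were not used.

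One gene was annotated to 34885 probes. Normexp background correction fitted to 1543 olfactory, vomeronasal and taste receptor probes (offset 16), quantile normalization and log2 were applied. Probes above the 99th percentile of receptor probes on at least 2 arrays were kept (16688), and the probe with the highest mean stood for its gene. limma 3.58.1 in R 4.3.3 fitted all 6 arrays with 1 coefficient per group (residual df 2, prior df 4.63) and Benjamini-Hochberg adjustment over 9625 genes. The authors' methods give a t-test, run as an alternative. An exact 2 against 2 permutation test cannot go below 0.333. Every measured member may be named, other fatty acid genes by the 6 largest called differences, and markers by the 3 largest. Markers beyond these are named only for a limit. Fold bounds on the deposited scale were added after seeing the data. Members and lists were chosen with earlier results of these data known. Replicate numbers do not pair the arrays. The fit was tested on simulated data.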

Additional observations from a re-analysis of the deposited data

Results flagged for a closer look

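The TAC effect differed between KO and WT hearts by its own limma test for 10 genes, each given as the effect in KO minus the effect in WT on the log2 scale: Acaa2 (2.13), Crat (1.70), Eci1 (1.66), Etfdh (1.54), Fabp5 (1.51), Cpt2 (1.51), Decr1 (1.45), Mlycd (1.37), Slc22a5 (1.18) and Ech1 (0.97). Fabp5 was at background on both WT TAC arrays, so its change in WT hearts is measured only as a bound. No group held 4 arrays, so single arrays were not screened against their group.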

How the results depend on the processing

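Directions of called members held in all alternatives that tested them. Fabp5, Hadha and Ehhadh were not tested where probes had to be above background on all 6 arrays. A call counted as kept below was made in every setting that tested its gene. Members called in KO TAC against WT TAC numbered 26 of 33 and 24 to 28 under the 8 other processing choices, where 24 of the 26 kept their call (Acacb and Ucp3 did not), and 16 also kept it with each array left out and with the replicate block. Over all genes, 1791 to 2213 were called higher under those 8 choices and 1494 to 1965 lower, beside 2077 and 1884 in the main fit. The genes tested numbered 8043 to 17773. Leaving out 1 array gave a members' median of 0.76 (without WT TAC replicate 2) to 1.04 (without WT TAC replicate 1), beside 0.93. The methods' t-test called 0 after Benjamini-Hochberg adjustment, 22 at an unadjusted p under 0.05, a limit at which all genes were not counted. In WT TAC against WT Sham 23 were called, 16 with no filter on dim probes, and 11 (without WT TAC replicate 2) to 16 with 1 array left out. For the difference in TAC effects 10 were called, 16 without background correction, 17 with offset 50, 18 with an intensity trend in the variance prior and 3 with no filter on dim probes (17773 genes tested), and 3 (without WT TAC replicate 2) to 12 with 1 array left out. The cause was not tested. KO TAC against KO Sham and KO Sham against WT Sham gave 0 members in every setting run. Same-numbered TAC arrays did not deviate together (r = 0.0473 across 9625 genes, which are not independent), so they share only a number; with the replicate block 27 members were called in KO TAC against WT TAC. Where an array was left out, the lone array was assumed to vary like the others. Dim probes such as those of Cd36, Acsl3 and Acsl4 limit what can be seen.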

Other observations

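Fatty acid genes outside the set showed a wider spread. Of 20 measured, 10 were higher in KO TAC than in WT TAC by limma and 1 was lower. The shares over all genes were 21.6% higher and 19.6% lower. Acot1, a cytosolic acyl-CoA thioesterase, read 1926 and 2099 in KO TAC and 1507 in KO Sham, against 233 and 247 in WT TAC and 2077 in WT Sham. Its log2 difference between the TAC groups, 3.81 ± 0.14 (adjusted p = 2.27e-05), exceeded that of every member. Acot1 and the mitochondrial thioesterase gene Acot2 (1.40 ± 0.20) are near-identical copies, so the probes may not part them. Slc25a20, the carnitine-acylcarnitine carrier of the inner membrane that works between Cpt1b and Cpt2, read 8881 and 9941 in KO TAC and 9883 in KO Sham, against 4861 and 3760 in WT TAC and 8917 in WT Sham (1.16 ± 0.17, adjusted p = 0.00297). Acsl6, a long-chain synthetase, was higher in KO TAC by 1.77 ± 0.30 (adjusted p = 0.0048), and Acss1, the mitochondrial acetyl-CoA synthetase, by 0.86 ± 0.16. Slc27a3 was the gene called lower in KO TAC by limma (adjusted p = 0.00291), at background on both KO TAC arrays. KO TAC was lower by at least 1.04-fold on the deposited scale and at least 1.11-fold after background subtraction. Slc27a3 was above background on the WT TAC arrays alone (153 and 165), so it passed the filter only through the group where it was high. In WT TAC against WT Sham, 8 of the 20 were lower and 1 higher, against 15.8% and 15.4% of all genes.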
